A study of Saccharomyces cerevisiae with 12 samples.

Results

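Yeast lacking SNF2 were compared directly with yeast lacking SWP82, in 6 of the 12 RNA sequencing libraries of the series, 3 for each deletion. Both genes code for parts of the SWI/SNF remodeling complex, which spends ATP to slide and evict nucleosomes and so opens promoters to transcription factors. Snf2 is the ATPase that drives remodelling. Swp82 is an accessory subunit found in yeast SWI/SNF and not in the related RSC complex. In budding yeast, SWI/SNF is known for its part in transcription of inducible genes, among them HO, the sucrose-cleaving invertase gene SUC2, and genes for phosphate use and stress, and its loss is known to lower some genes and raise others. The comparison asks in which genes the loss of the motor subunit and the loss of the accessory subunit leave different amounts of RNA.

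All strains were haploid Saccharomyces cerevisiae BY4741, mating type a, with the alleles his3delta_1, leu2delta_0, met15delta_0 and ura3delta_0, grown at 30 °C to log phase as independent biological triplicates. The snf2 deletion strain carried snf2delta_::kanMX4 and the swp82 deletion strain swp82delta_::kanMX4. Per the labels, both deletion strains also carried a 2FLAG tag on Snf6, another SWI/SNF subunit, linked to the marker LEU2, while the wild type carried its 2FLAG tag with LEU2 on Snf2 and no kanMX4. By these labels the 2 deletions share their tag and resistance marker, and each differs from the wild type in tag as well as in the deleted gene, but the LEU2 reads given below go against the labels in both deletions. Whether each strain was a single clone is not given in the sources used here. Values are given as scaled CPM: reads of a gene as a share of the library's reads (CPM), divided by a library scaling factor. Log2 fold changes are the snf2 deletion over the swp82 deletion on log2(scaled CPM + 1) with the SE of the fit, and a gene was called when its two-sided Benjamini-Hochberg adjusted p from limma was under 0.05.

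Depth was 10027008 to 11375192 reads in genes for the snf2 deletion and 9012746 to 11095420 for the swp82 deletion. A single read was thus equal to 0.0822 to 0.118 scaled CPM. The top 10 genes took 8.07 to 8.85% of reads in the snf2 deletion and 10.1 to 11.1% in the swp82 deletion. The scaling factors were 1.07 to 1.08 in the snf2 deletion and 0.907 to 0.943 in the swp82 deletion. Across genes, log2 values of replicates correlated at 0.996 to 0.997 within the snf2 deletion and 0.991 to 0.996 within the swp82 deletion, and at 0.956 to 0.973 between the 2 deletions. Replicate 1 of the swp82 deletion stood somewhat apart from its replicates 2 and 3 (0.991 with either, against 0.996 between those), and it was the swp82 library nearest to each snf2 library (0.970 to 0.973).

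The deleted genes followed the labels. SNF2 (YOR290C, chrXV:855147-860258) was at 0.493, 0.742 and 0.712 scaled CPM in the snf2 deletion, against 129, 127 and 143 in the swp82 deletion (log2 fold change -6.35 ± 0.08, adjusted p = 7.45e-13). The 22 reads that remained in the snf2 deletion correspond to 0.487% of the swp82 deletion's level (exact Poisson 95% interval 0.305 to 0.738%, which covers counting error only). SWP82 (YFL049W, chrVI:36803-38674) was at 60.3, 53.2 and 61.8 scaled CPM in the snf2 deletion, against 0, 0 and 0 in the swp82 deletion, where no read was counted. Set against the level that 3 reads over its 3 libraries would give, it was at least 528-fold lower in the swp82 deletion. LEU2, the marker that the labels place beside Snf6 in both deletion strains, had 0 reads in all 6 libraries and 57, 56.3 and 55.3 scaled CPM in the wild type. It was at least 639-fold below the wild type in the snf2 deletion and at least 508-fold below in the swp82 deletion. For LEU2 the libraries thus go against the labels, and they do so alike in the 2 deletions.

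Among the 12 SWI/SNF subunit genes tested, 3 were higher in the snf2 deletion (25%) and 2 lower (16.7%), the deleted genes included. These shares are near the 21.7% and 21.8% of all genes, and the remaining subunit genes differed by little. SNF6, which encodes the subunit that the labels give as tagged, was at 132, 130.0 and 140.2 scaled CPM in the snf2 deletion, against 107, 105 and 112 in the swp82 deletion (log2 fold change 0.31 ± 0.08, adjusted p = 0.00829). SWI3, encoding a core scaffold subunit, was at 121, 132 and 125 scaled CPM in the snf2 deletion, against 107, 106 and 116 in the swp82 deletion (log2 fold change 0.20 ± 0.05, adjusted p = 0.0109). ARP9, encoding an actin-related protein shared with RSC, was at 129.8, 138 and 138 scaled CPM in the snf2 deletion, against 143, 153 and 162 in the swp82 deletion (log2 fold change -0.17 ± 0.06, adjusted p = 0.038). Its call was lost without any 1 library other than replicate 1 of the swp82 deletion (adjusted p up to 0.132) and its sign turned with scaling to total counts (0.05). SWI1, encoding another large core subunit, was at 63.9, 61.8 and 67.6 scaled CPM in the snf2 deletion, against 73.9, 78.3 and 83.5 in the swp82 deletion, and missed the threshold with 12 libraries in the fit (log2 fold change -0.28 ± 0.11, adjusted p = 0.066), though not with only the 6 (adjusted p = 0.0126). SNF5, the subunit gene deleted in the other strain of the series, was at 109, 92.8 and 96.3 scaled CPM in the snf2 deletion, against 109, 95 and 94.8 in the swp82 deletion (log2 fold change -0.01 ± 0.09, adjusted p = 0.964, or 0.21 with total-count scaling). SNF12, ARP7, SNF11, TAF14 and RTT102 had log2 fold changes between -0.07 and 0.11 and were not called.

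Of 5820 genes tested, 1265 were higher in the snf2 deletion than in the swp82 deletion (21.7%) and 1268 were lower (21.8%), 2533 in all (43.5%). Counts of list members called, given below, are to be read against these shares, which hold for the deposited scaling with all libraries. List counts with total-count scaling are to be read against 2937 higher and 577 lower of the 5820 genes. With 1 library left out, 911 to 1363 of all genes were higher and 876 to 1452 lower. Most of these differences were small: 215 genes were called and at least 2-fold higher (3.69%), and 128 were called and at least 2-fold lower (2.2%), 343 in all (5.89%). The counts past 2-fold depend on the settings: they were 109 higher and 100 lower with a pseudocount of 5, 287 and 143 with a pseudocount of 0.1, and 319 and 86 with total-count scaling. The 3 values of one deletion did not overlap the 3 of the other in 3351 genes (57.6%). Set against the wild type in the same fit, 1612 genes were called in the snf2 deletion (27.7%) and 203 in the swp82 deletion (3.49%). These comparisons share libraries with the direct one. Wild-type values, and some fold changes and calls against the wild type, are given below beside the direct comparison and are not independent of it. The even split between higher and lower depends on the scaling. With total-count scaling the median gene moved to 0.21, and 2937 genes were higher and 577 lower, 83.6% of calls higher against 49.9% with the deposited scaling. With upper-quartile factors the median was 0.07, and 1611 genes were higher and 1015 lower.

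**Figure D1:**
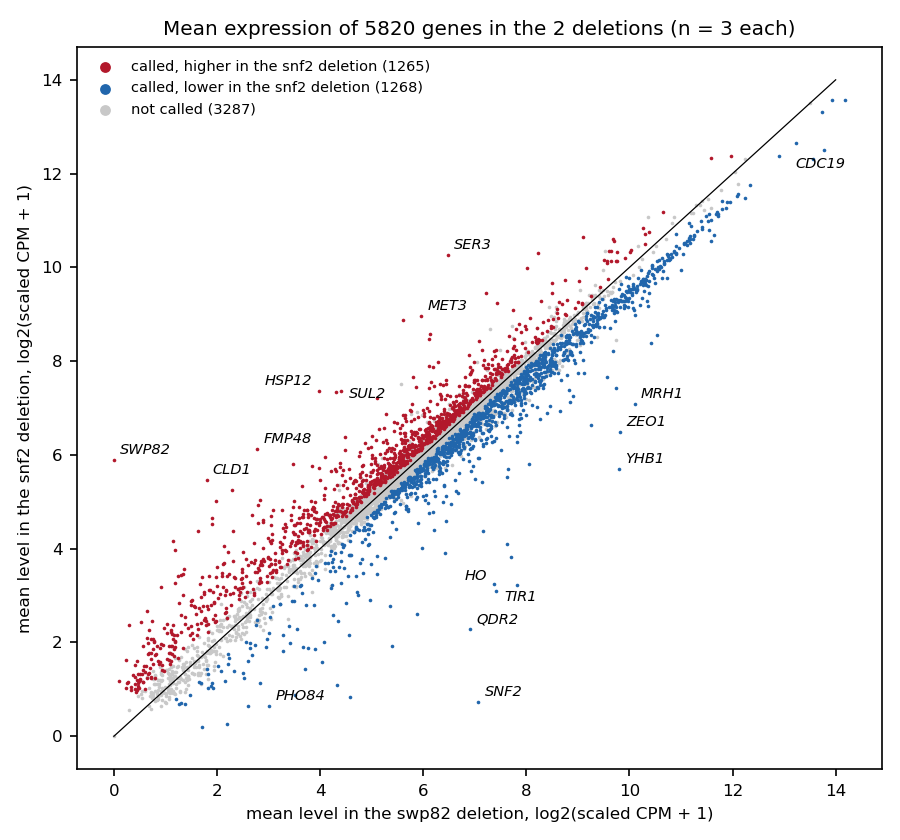
Mean level of each of 5820 genes in the snf2 deletion (vertical axis) and in the swp82 deletion (horizontal axis), both as log2(scaled CPM + 1), over 3 libraries each; red genes were called higher and blue genes lower in the snf2 deletion, and the line marks equal levels. Genes of the highest levels lie mostly below the line, and SNF2, QDR2, YGR035C and TIR1 lie farthest below it in fold change.

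The direction of the difference changed with expression level. Among the 970 genes of the lowest sixth by mean level over all 12 libraries, 35.4% were higher in the snf2 deletion and 10% lower. Among the 970 of the highest sixth, 11.9% were higher and 49.8% lower, with a median log2 fold change of -0.22. Total-count scaling moved the median of the lowest sixth to 0.37 and that of the highest to -0.0036, so the lowest sixth stayed above the highest.

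**Figure D2:**
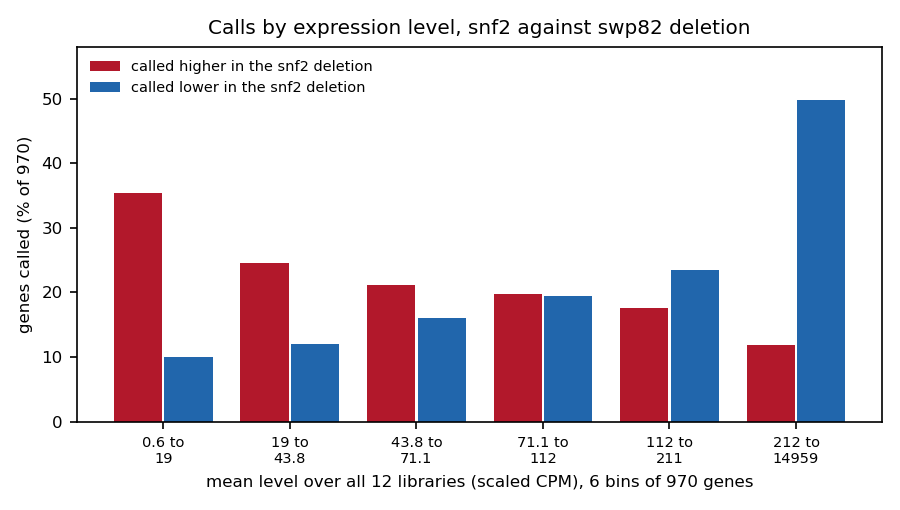
Share of genes called higher (red) and lower (blue) in the snf2 deletion against the swp82 deletion, in 6 bins of 970 genes ordered by mean scaled CPM over all 12 libraries. The share higher falls from 35.4% in the bin of lowest level to 11.9% in the highest, and the share lower goes from 10% to 49.8%.

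The promoters of 8 genes, from the sulfate, stress, mating and iron groups described below, are shown here. Each holds letters known as the binding site of a regulator of genes in its group. Windows run from 350 to 51 bases before the annotated start of the gene in RefSeq's R64 genome, 5′ to 3′ on the gene's strand, with matches to the named motif on either strand in capitals. For sulfate assimilation the motifs were CACGTG, the E-box of Cbf1, and AAACTGTGG, the Met31 and Met32 site; the windows are chrX:455889-456188 (plus strand) for MET3, with a Met31 site, and chrXII:323194-323493 (plus strand) for SUL2, with 2 E-boxes. For the general stress response the motif was AGGGG, the Msn2 and Msn4 element, in chrXV:231806-232105 (minus strand) for DDR2, with 3 matches, and chrVII:654284-654583 (plus strand) for CTT1, with 1. For mating the motif was TGAAACA, the Ste12 pheromone response element, in chrVII:436884-437183 (minus strand) for AGA2, with 1 match, and chrIX:321992-322291 (plus strand) for BAR1, with 2. For iron uptake the motif was TGCACCC, the Aft1 site, in chrV:27307-27606 (plus strand) for SIT1 and chrVIII:21022-21321 (minus strand) for ARN1, with 1 match in each. The first 4 genes were higher in the snf2 deletion and the last 4 lower.
MET3: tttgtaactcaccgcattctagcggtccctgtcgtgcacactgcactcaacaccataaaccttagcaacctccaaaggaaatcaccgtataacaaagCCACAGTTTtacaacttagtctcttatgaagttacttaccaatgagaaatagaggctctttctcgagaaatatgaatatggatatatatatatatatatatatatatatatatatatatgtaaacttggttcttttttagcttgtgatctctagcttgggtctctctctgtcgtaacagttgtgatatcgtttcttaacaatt
SUL2: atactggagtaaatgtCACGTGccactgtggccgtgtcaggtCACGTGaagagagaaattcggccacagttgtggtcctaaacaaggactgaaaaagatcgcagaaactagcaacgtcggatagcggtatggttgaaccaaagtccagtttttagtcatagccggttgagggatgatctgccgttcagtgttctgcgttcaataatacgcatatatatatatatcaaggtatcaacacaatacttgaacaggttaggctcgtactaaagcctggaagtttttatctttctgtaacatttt
DDR2: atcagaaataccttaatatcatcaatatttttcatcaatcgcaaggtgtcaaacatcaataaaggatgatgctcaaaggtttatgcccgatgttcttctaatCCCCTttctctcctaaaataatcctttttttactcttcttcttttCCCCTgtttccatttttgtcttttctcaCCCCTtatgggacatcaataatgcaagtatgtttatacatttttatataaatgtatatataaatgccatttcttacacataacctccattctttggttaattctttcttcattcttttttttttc
CTT1: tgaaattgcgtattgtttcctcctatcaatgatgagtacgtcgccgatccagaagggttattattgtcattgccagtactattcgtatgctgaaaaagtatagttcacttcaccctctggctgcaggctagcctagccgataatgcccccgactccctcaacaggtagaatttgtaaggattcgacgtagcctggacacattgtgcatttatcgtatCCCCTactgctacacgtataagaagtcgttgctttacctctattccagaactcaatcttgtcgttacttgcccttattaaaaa
AGA2: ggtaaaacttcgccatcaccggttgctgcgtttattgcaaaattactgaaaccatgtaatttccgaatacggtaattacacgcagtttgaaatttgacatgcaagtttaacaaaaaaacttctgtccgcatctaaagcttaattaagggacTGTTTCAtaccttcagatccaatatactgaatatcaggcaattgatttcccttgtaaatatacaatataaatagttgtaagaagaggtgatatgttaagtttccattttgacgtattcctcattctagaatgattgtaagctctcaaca
BAR1: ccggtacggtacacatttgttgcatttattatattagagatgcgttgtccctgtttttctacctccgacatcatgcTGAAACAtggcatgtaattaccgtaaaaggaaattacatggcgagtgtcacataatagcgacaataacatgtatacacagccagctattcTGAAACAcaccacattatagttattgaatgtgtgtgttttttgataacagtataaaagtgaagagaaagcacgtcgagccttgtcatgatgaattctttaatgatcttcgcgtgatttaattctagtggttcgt
SIT1: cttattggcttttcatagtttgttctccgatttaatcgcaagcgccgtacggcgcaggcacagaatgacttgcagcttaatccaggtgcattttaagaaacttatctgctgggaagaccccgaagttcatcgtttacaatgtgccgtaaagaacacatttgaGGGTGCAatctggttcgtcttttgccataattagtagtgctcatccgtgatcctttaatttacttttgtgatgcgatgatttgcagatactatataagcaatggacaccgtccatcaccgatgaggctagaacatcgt
ARN1: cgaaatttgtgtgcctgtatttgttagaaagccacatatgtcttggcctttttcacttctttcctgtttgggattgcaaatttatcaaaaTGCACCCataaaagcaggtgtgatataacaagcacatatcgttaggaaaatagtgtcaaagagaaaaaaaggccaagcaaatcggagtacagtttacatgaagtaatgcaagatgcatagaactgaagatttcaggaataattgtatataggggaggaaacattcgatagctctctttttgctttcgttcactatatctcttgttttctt

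Over 5623 promoters of this length, an E-box was found in 4.02%, a Met31 site in 0.587%, AGGGG in 23.1%, the pheromone response element in 7.34% and the Aft1 site in 1.44%. Of the 29 promoters of the sulfate and methionine list, 13 held an E-box and 11 a Met31 site. AGGGG was found in 25 of the 30 Msn2 and Msn4 promoters and in 16 of the 19 trehalose and glycogen promoters. The pheromone response element was found in 6 of the 7 MATa-specific promoters and in 14 of the 28 of the pheromone list, and the Aft1 site in 16 of the 28 of the iron list. These lists hold known targets of the regulators, so the shares describe the lists, and a match is not evidence of binding in these strains.

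The genes furthest above the swp82 deletion were, after SWP82 itself, SER3, CLD1, HSP12, FMP48, TSL1, SOL4, PDC6, SUL2, PUT4, MET3, MET2, DDR2, HXK1 and ADH2. They and the genes furthest below were taken as the 15 highest and 15 lowest log2 fold changes among 305 genes with a call, at least a 2-fold change, a mean of at least 5 scaled CPM in the higher deletion and no overlap between the deletions. Separation of the libraries is thus part of the choice. SER3 (YER081W, chrV:322686-324095), the first enzyme of serine synthesis, was at 1179.8, 1264 and 1252 scaled CPM in the snf2 deletion, against 87.9, 87 and 88.7 in the swp82 deletion (log2 fold change 3.79 ± 0.08, adjusted p = 6.26e-11). The wild type had 78.6, 84.9 and 74, so the swp82 deletion lay close to the wild type and the snf2 deletion far above both. SER3 overlaps the non-coding RNA gene SRG1 on the same strand, so reads of the 2 cannot be told apart in its count.

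In several of the strongest rises the wild type lay between the 2 deletions. CLD1 (YGR110W, chrVII:713709-715046), a mitochondrial cardiolipin phospholipase, was at 45.9, 42.7 and 40.8 scaled CPM in the snf2 deletion, against 2.47, 2.90 and 2.06 in the swp82 deletion (log2 fold change 3.67 ± 0.14, adjusted p = 1.02e-08), with 5.88, 5.61 and 4.02 in the wild type. HSP12 (YFL014W, chrVI:107256-107585), a small membrane-associated stress protein, was at 175, 161 and 154 scaled CPM in the snf2 deletion, against 14.5, 24.7 and 4.81 in the swp82 deletion (log2 fold change 3.63 ± 0.52, adjusted p = 0.000283), with 136, 46.7 and 42.8 in the wild type. The swp82 libraries of HSP12 spread widely and all lay under the wild type, and the snf2 libraries all lay above it. Against the wild type HSP12 was called in the swp82 deletion (limma adjusted p = 0.0376) and not in the snf2 deletion (0.0842). DDR2 (YOL052C-A, chrXV:231570-231755), another stress-induced gene, took a different course. It was at 17.1, 12.7 and 14.6 scaled CPM in the snf2 deletion, against 2.00, 1.04 and 0.785 in the swp82 deletion (log2 fold change 2.82 ± 0.38, adjusted p = 0.000192). The wild type had 32, 11.9 and 15.8, so the snf2 deletion was near the wild type and the swp82 deletion far below. Against the wild type its log2 fold change was -0.30 in the snf2 deletion and -3.12 in the swp82 deletion.

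TSL1, a subunit of trehalose synthase, was at 575, 318 and 507 scaled CPM in the snf2 deletion, against 77.3, 28 and 38.4 in the swp82 deletion (log2 fold change 3.34 ± 0.90, adjusted p = 0.0126). Its call was lost without replicate 2 of the swp82 deletion (adjusted p = 0.0508). SOL4, a 6-phosphogluconolactonase, was at 46.4, 29.9 and 34.6 scaled CPM in the snf2 deletion, against 7.88, 0.812 and 2.94 in the swp82 deletion (log2 fold change 3.23 ± 0.68, adjusted p = 0.00326). HXK1, the hexokinase isoform made when glucose is scarce, was at 579, 286 and 284 scaled CPM in the snf2 deletion, against 139.6, 46.9 and 20.5 in the swp82 deletion (log2 fold change 2.79 ± 0.66, adjusted p = 0.00646). For these 3 genes replicate 1 was the highest library of each deletion and of the wild type (261, 138 and 138 for TSL1, 17.3, 9.70 and 10.3 for SOL4 and 375, 204 and 193 for HXK1). The spread among replicates was therefore wide, and in each case the lowest snf2 library still exceeded the highest swp82 library. The SEs and adjusted p also take in the spread of the snf5 deletion, as all 12 libraries were fitted. Its libraries were at 869, 207 and 31.7 scaled CPM for TSL1, 47.2, 13.9 and 5.48 for SOL4 and 314, 173 and 73.6 for HXK1. Against the wild type none of the 3 genes was called in either deletion (limma adjusted p from 0.0878 to 0.569).

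In the other leading rises the swp82 deletion lay closer to the wild type than the snf2 deletion did. FMP48 was at 87.9, 57.2 and 60.2 scaled CPM in the snf2 deletion, against 9.06, 4.64 and 3.83 in the swp82 deletion (log2 fold change 3.39 ± 0.31, adjusted p = 1.49e-05). PDC6, a minor pyruvate decarboxylase, was at 14.3, 18.2 and 18.6 scaled CPM in the snf2 deletion, against 2.12, 0.696 and 0.785 in the swp82 deletion (log2 fold change 3.08 ± 0.22, adjusted p = 1.95e-06). ADH2, the alcohol dehydrogenase that oxidises ethanol and is repressed by glucose, was at 24.2, 25.3 and 23 scaled CPM in the snf2 deletion, against 2.12, 3.71 and 2.35 in the swp82 deletion (log2 fold change 2.78 ± 0.16, adjusted p = 5.09e-07), with reads uncertain because ADH1 is nearly identical. PUT4, the proline permease, was at 31.9, 25.2 and 37 scaled CPM in the snf2 deletion, against 3.18, 2.90 and 2.84 in the swp82 deletion (log2 fold change 3.01 ± 0.16, adjusted p = 2.45e-07). Wild-type values were 7.15, 4.73 and 5.46 for FMP48, 0.937, 1.44 and 1.44 for PDC6, 2.21, 2.88 and 2.89 for ADH2 and 5.79, 4.01 and 4.33 for PUT4. In FMP48, PDC6 and ADH2 the wild-type values lay within or near those of the swp82 deletion, and in PUT4 they lay above them.

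**Figure D3:**
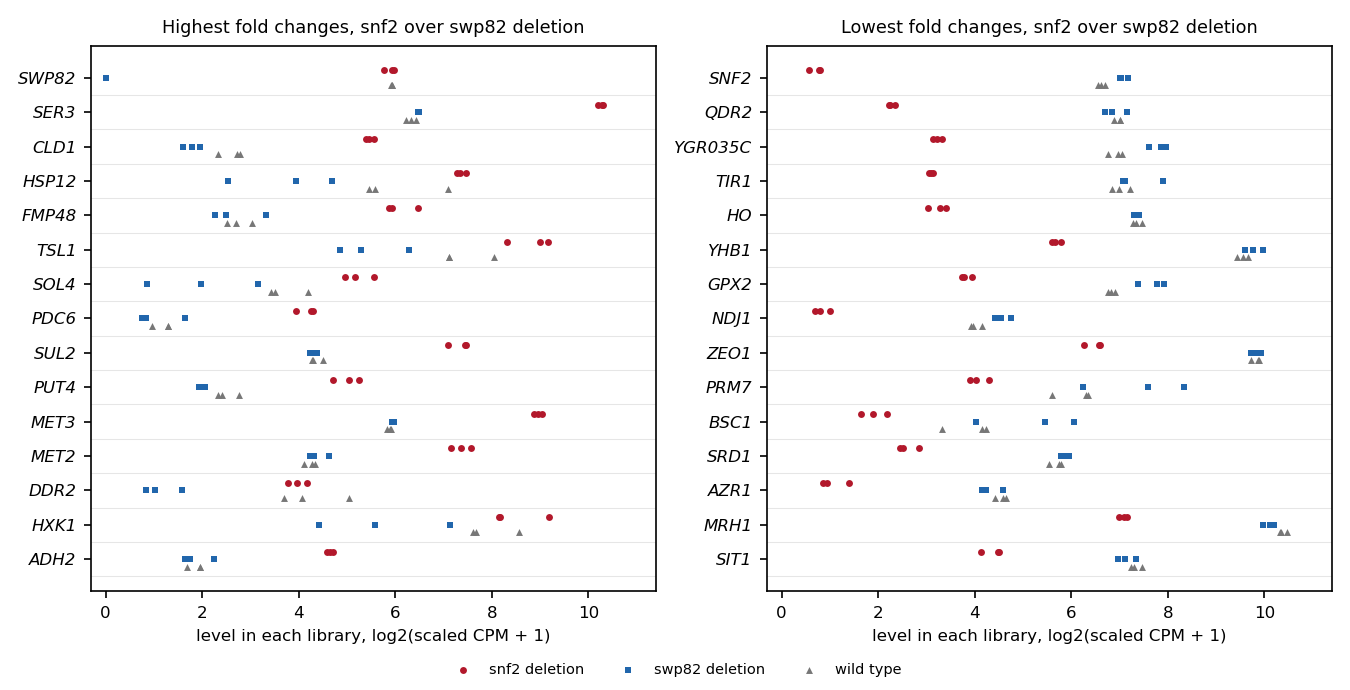
Level of the 15 genes with the highest (left) and the 15 with the lowest (right) log2 fold change, in each library of the snf2 deletion (red circles), the swp82 deletion (blue squares) and the wild type (grey triangles), as log2(scaled CPM + 1). The wild type lies with the swp82 deletion in SER3, MET3, QDR2 and HO, and between the 2 deletions in CLD1, HSP12, TSL1 and SOL4.

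The genes furthest below the swp82 deletion were, after SNF2 itself, QDR2, YGR035C, TIR1, HO, YHB1, GPX2, NDJ1, ZEO1, PRM7, BSC1, SRD1, AZR1, MRH1 and SIT1. HO (YDL227C, chrIV:46271-48031), the endonuclease that starts mating-type switching and a classical SWI/SNF target, was at 7.23, 9.55 and 8.73 scaled CPM in the snf2 deletion, against 167, 167 and 157 in the swp82 deletion (log2 fold change -4.12 ± 0.13, adjusted p = 2.85e-09). The wild type had 162, 154 and 176, which overlaps the swp82 deletion. QDR2 (YIL121W, chrIX:132244-133872), a multidrug transporter of the plasma membrane, was at 3.78, 3.71 and 4.10 scaled CPM in the snf2 deletion, against 113, 102 and 141 in the swp82 deletion (log2 fold change -4.61 ± 0.11, adjusted p = 2.98e-10), with 128, 128 and 117 in the wild type. ZEO1 (YOL109W, chrXV:110297-110638), a peripheral membrane protein tied to cell wall signalling, was at 76, 95.1 and 94.6 scaled CPM in the snf2 deletion, against 839, 909.6 and 969 in the swp82 deletion (log2 fold change -3.34 ± 0.11, adjusted p = 2.85e-09), with 848, 936 and 953 in the wild type. In these 3 genes the swp82 deletion lay at about the wild-type level, and every snf2 library lay far below both.

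Among the 15 lowest genes, YGR035C, GPX2 and SNF2 itself were called higher in the swp82 deletion than in the wild type. YGR035C (chrVII:557072-557422), an uncharacterised gene, was at 7.81, 8.35 and 9.08 scaled CPM in the snf2 deletion, against 194, 249 and 231 in the swp82 deletion (log2 fold change -4.58 ± 0.15, adjusted p = 3.61e-09), with 107, 131 and 124 in the wild type. GPX2 (YBR244W, chrII:707528-708016), a phospholipid hydroperoxide glutathione peroxidase, was at 14.4, 12.4 and 12.6 scaled CPM in the snf2 deletion, against 219, 242 and 165 in the swp82 deletion (log2 fold change -3.87 ± 0.12, adjusted p = 2.18e-09), with 119, 113 and 108 in the wild type. Against the wild type, the log2 fold change of YGR035C was -3.69 in the snf2 deletion and 0.88 in the swp82 deletion, and that of GPX2 was -3.01 in the snf2 deletion and 0.86 in the swp82 deletion, each called (adjusted p = 0.0113 and 0.00327 for the swp82 deletion). That of SNF2 was 0.44 in the swp82 deletion (adjusted p = 0.0163). By the labels, the wild type carries its 2FLAG tag with LEU2 on Snf2 itself. For SNF2 the tag and the swp82 deletion thus cannot be told apart in the comparison with the wild type. PRM7, a pheromone-regulated gene, was at 14.1, 18.7 and 15.4 scaled CPM in the snf2 deletion, against 74.3, 323 and 191 in the swp82 deletion (log2 fold change -3.30 ± 0.44, adjusted p = 0.000184). Its neighbour BSC1 was at 2.71, 3.52 and 2.14 scaled CPM in the snf2 deletion, against 15.4, 65.4 and 43 in the swp82 deletion (log2 fold change -3.28 ± 0.47, adjusted p = 0.000266). Replicate 1 of the swp82 deletion was the lowest swp82 library for both neighbours, and replicate 1 of the wild type the lowest there too (47.6, 78.3 and 80.7 for PRM7 and 8.94, 16.7 and 17.8 for BSC1). Both averaged higher in the swp82 deletion than in the wild type and were not called there (adjusted p = 0.115 and 0.129).

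YHB1 (YGR234W, chrVII:959904-961103), the flavohaemoglobin that destroys nitric oxide, was at 47.7, 54.5 and 49.8 scaled CPM in the snf2 deletion, against 777, 871 and 1003 in the swp82 deletion (log2 fold change -4.09 ± 0.11, adjusted p = 7.81e-10), with 695, 755 and 805 in the wild type. TIR1 (YER011W, chrV:175248-176012), a cell wall mannoprotein of cold and anaerobic growth, was at 7.31, 7.60 and 7.84 scaled CPM in the snf2 deletion, against 134, 138 and 239 in the swp82 deletion (log2 fold change -4.27 ± 0.21, adjusted p = 1.61e-07), with 125, 113 and 148 in the wild type. MRH1 (YDR033W, chrIV:508147-509109), a membrane protein related to the heat shock protein Hsp30, was at 142, 126 and 136 scaled CPM in the snf2 deletion, against 999, 1178 and 1111 in the swp82 deletion (log2 fold change -3.01 ± 0.08, adjusted p = 1.16e-09), with 1307, 1411 and 1284 in the wild type. The 3 genes were thus abundant in the swp82 deletion and in the wild type, and at a small part of that level in the snf2 deletion. SIT1 (YEL065W, chrV:27657-29543), a siderophore transporter, was at 16.4, 21.4 and 21.6 scaled CPM in the snf2 deletion, against 162, 125 and 138 in the swp82 deletion (log2 fold change -2.78 ± 0.17, adjusted p = 7.27e-07). AZR1, a transporter tied to azole resistance, was at 1.64, 0.927 and 0.801 scaled CPM in the snf2 deletion, against 22.9, 16.7 and 17.8 in the swp82 deletion (log2 fold change -3.25 ± 0.19, adjusted p = 4.91e-07). NDJ1, a meiotic telomere protein, was at 0.74, 1.02 and 0.623 scaled CPM in the snf2 deletion, against 22.4, 25.9 and 20.4 in the swp82 deletion (log2 fold change -3.73 ± 0.20, adjusted p = 2.22e-07). SRD1 was at 4.68, 4.45 and 6.23 scaled CPM in the snf2 deletion, against 58.6, 61 and 54 in the swp82 deletion (log2 fold change -3.28 ± 0.16, adjusted p = 1.66e-07). In the wild type NDJ1 was at 14.6, 16.7 and 14.1 and SRD1 at 45.5, 53.9 and 53, below every swp82 library in both, though neither was called between the swp82 deletion and the wild type (adjusted p = 0.119 and 0.471).

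Genes of sulfate assimilation and methionine synthesis were higher in the snf2 deletion. The pathway takes up sulfate, activates and reduces it to sulfide, and joins sulfide to a homoserine derivative to make homocysteine and methionine, and the strains all carry met15delta_0 in it. Of 29 genes tested, 16 were higher and 4 lower, against 21.7% and 21.8% of all genes, and the median log2 fold change was 0.57, against 0.00 over all genes. MET3, the ATP sulfurylase that activates sulfate, was at 493, 469.8 and 527 scaled CPM in the snf2 deletion, against 61.7, 62.2 and 59.7 in the swp82 deletion (log2 fold change 3.00 ± 0.09, adjusted p = 1.78e-09). SUL2, a sulfate permease, was at 175, 136 and 174 scaled CPM in the snf2 deletion, against 19.8, 19.1 and 17.9 in the swp82 deletion (log2 fold change 3.02 ± 0.14, adjusted p = 7.88e-08). MET2, which acetylates homoserine, was at 189, 141 and 164 scaled CPM in the snf2 deletion, against 23.8, 18.8 and 17.9 in the swp82 deletion (log2 fold change 2.97 ± 0.19, adjusted p = 8.09e-07). MET10, a subunit of sulfite reductase, was at 245, 226 and 238 scaled CPM in the snf2 deletion, against 70.6, 64.2 and 69.2 in the swp82 deletion (log2 fold change 1.78 ± 0.11, adjusted p = 6.28e-07). The wild type had 59.4, 56 and 57.9 for MET3, 18.5, 21.8 and 18.7 for SUL2, 19.2, 16.3 and 18.5 for MET2 and 78.8, 71.9 and 77 for MET10, close to the swp82 deletion in each. Other enzymes of sulfate activation and reduction were also called, with log2 fold changes of MET14 1.61, MET5 1.39 and MET16 1.24. So were the transcription cofactor gene MET28 (2.34) and the methionine synthase gene MET6 (1.99). The members called lower had log2 fold changes of CYS4 -1.17, SAM1 -1.0, SAM3 -1.04 and MET31 -0.27. The first 2 use homocysteine or methionine, SAM3 is a permease and MET31 a regulator of the pathway. Median log2 fold changes against the wild type were 0.83 in the snf2 deletion and 0.07 in the swp82 deletion.

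Stress genes and the genes of reserve carbohydrates were higher in the snf2 deletion, and the swp82 deletion lay under the wild type in most of them. Of 30 genes of the Msn2 and Msn4 general stress response, 20 were higher and 1, DDR48 (log2 fold change -1.07), was lower, with a median log2 fold change of 1.00. CTT1, the cytosolic catalase, was at 70.1, 57 and 54.8 scaled CPM in the snf2 deletion, against 18.6, 13.2 and 16.6 in the swp82 deletion (log2 fold change 1.85 ± 0.22, adjusted p = 8e-05), with 30.1, 24.8 and 22.6 in the wild type. GRE1, an osmotic stress gene, was at 10.5, 8.25 and 9.88 scaled CPM in the snf2 deletion, against 2.94, 2.20 and 1.67 in the swp82 deletion (log2 fold change 1.70 ± 0.21, adjusted p = 9.42e-05). The genes of the regulators themselves were not called (log2 fold change -0.01 for MSN2 and 0.06 for MSN4). Against the wild type the list medians were 0.33 in the snf2 deletion and -0.65 in the swp82 deletion. The summed level of the list was 5559, 4208 and 4696 scaled CPM in the snf2 deletion, against 3382, 2272 and 2019.9 in the swp82 deletion and 4913, 3576 and 3566 in the wild type. Replicate 1 was highest in each group, and the lowest snf2 library still exceeded the highest swp82 library. The count of members called higher fell to 12 without replicate 1 of the snf2 deletion, 13 without its replicate 3, 13 without replicate 2 of the swp82 deletion and 12 without its replicate 3.

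Trehalose and glycogen, the reserve carbohydrates of yeast, are built by enzymes of which 10 of 19 were higher in the snf2 deletion and 1, PGM1 (-0.36), was lower, with a median of 0.96, or 0.59 with a pseudocount of 5. PGM1 lost its call with total-count scaling. GLC3, the glycogen branching enzyme, was at 22.4, 20.4 and 24.8 scaled CPM in the snf2 deletion, against 8.24, 5.45 and 4.22 in the swp82 deletion (log2 fold change 1.79 ± 0.42, adjusted p = 0.00614), with 20.3, 10.9 and 12.9 in the wild type. GAC1, which targets a phosphatase to glycogen synthase, was at 3.12, 2.23 and 4.27 scaled CPM in the snf2 deletion, against 0.706, 0.58 and 0.687 in the swp82 deletion (log2 fold change 1.32 ± 0.29, adjusted p = 0.00476). GPH1, glycogen phosphorylase, and GSY1, a glycogen synthase, had log2 fold changes of 1.81 and 1.34, both called. Summed over the list, the level was 3013, 2238 and 2747 scaled CPM in the snf2 deletion, against 1752, 1253 and 1444 in the swp82 deletion and 2561, 1955 and 1907 in the wild type. The members called higher fell to 6 without replicate 1 or 3 of the snf2 deletion or replicate 3 of the swp82 deletion, and to 5 without replicate 2 of the swp82 deletion. They numbered 17 with only the 6 libraries in the fit and 18 with total-count scaling, which called 2937 of all 5820 genes higher. Heat shock chaperones did not share the pattern by count: of 20, 2 were higher (1 without replicate 2 or 3 of the snf2 deletion or replicate 2 or 3 of the swp82 deletion and 4 without replicate 1 of the swp82 deletion) and 3 lower. The 3 lower ones were the ribosome-associated SSB1 at a log2 fold change of -0.95 ± 0.14 (adjusted p = 0.000319), its paralog SSB2 at a log2 fold change of -0.63 ± 0.10 (adjusted p = 0.000702) and SSE1 at a log2 fold change of -0.41 ± 0.06 (adjusted p = 0.000431).

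Genes of respiration were higher in the snf2 deletion almost throughout. Yeast in glucose ferments and represses respiratory genes, which the Hap2/3/4/5 complex activates when glucose runs out. Of 34 genes of the respiratory chain and ATP synthase, 30 were higher and 0 lower, and the median was 0.59. By limma at an unadjusted p under 0.05, by edgeR and by DESeq2, 0 were lower as well. ATP3, a subunit of the ATP synthase, was at 424, 398 and 351 scaled CPM in the snf2 deletion, against 248, 230.2 and 229 in the swp82 deletion (log2 fold change 0.72 ± 0.07, adjusted p = 2.47e-05). COX7, a subunit of cytochrome c oxidase, was at 52.1, 47 and 47.4 scaled CPM in the snf2 deletion, against 28, 29.6 and 23.9 in the swp82 deletion (log2 fold change 0.83 ± 0.09, adjusted p = 3.94e-05). The highest member was CYC7, the hypoxic cytochrome c isoform, with a log2 fold change of 1.98, and the next NDI1, the internal NADH dehydrogenase, with 1.13. Summed over the list, the level was 7739, 7023 and 6362 scaled CPM in the snf2 deletion, against 4983, 4389 and 4557 in the swp82 deletion and 5896, 5675 and 5345 in the wild type. In the tricarboxylic acid cycle 14 of 16 genes were higher, with a median of 0.85, and 0 were lower (likewise 0 by limma at an unadjusted p under 0.05, edgeR and DESeq2). The subunit gene IDH1 of isocitrate dehydrogenase was at 543, 513 and 571 scaled CPM in the snf2 deletion, against 262, 215 and 162 in the swp82 deletion (log2 fold change 1.37 ± 0.21, adjusted p = 0.000415). LSC2, a subunit of succinyl-CoA ligase, was at 244, 219 and 209 scaled CPM in the snf2 deletion, against 149, 119.5 and 101 in the swp82 deletion (log2 fold change 0.87 ± 0.12, adjusted p = 0.000273). SDH3, a subunit of succinate dehydrogenase, was at 208, 191 and 177 scaled CPM in the snf2 deletion, against 137, 118 and 125 in the swp82 deletion (log2 fold change 0.59 ± 0.08, adjusted p = 0.000202). Without replicate 3 of the swp82 deletion, 1 member was lower. In these lists the wild type lay between the deletions: medians against it were 0.38 in the snf2 deletion and -0.26 in the swp82 deletion for the respiratory chain, and 0.34 in the snf2 deletion and -0.39 in the swp82 deletion for the cycle. The CCAAT letters of the Hap complex were found in 30 of 34 promoters of the respiratory list and 14 of 16 of the cycle, against 43.1% of all promoters.

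The genes that let cells grow on non-fermentable carbon were higher as well, at low levels. In the list of 20 genes for making glucose, running the glyoxylate cycle and using acetate, 16 were higher, with a median of 0.70 (0.41 with a pseudocount of 5), and 0 were lower (likewise 0 by limma at an unadjusted p under 0.05, edgeR and DESeq2). ADR1, an activator of glucose-repressed genes, was at 60.1, 71.6 and 72.8 scaled CPM in the snf2 deletion, against 22.4, 20.1 and 21.6 in the swp82 deletion (log2 fold change 1.63 ± 0.13, adjusted p = 4.85e-06), with 30.7, 29.1 and 29.7 in the wild type. CAT8, the activator of gluconeogenic genes, was at 12.1, 10.5 and 11 scaled CPM in the snf2 deletion, against 3.53, 2.78 and 2.65 in the swp82 deletion (log2 fold change 1.61 ± 0.16, adjusted p = 2.4e-05), with 6.13, 5.93 and 5.67 in the wild type. SFC1, a mitochondrial succinate and fumarate carrier, was at 3.04, 4.36 and 6.05 scaled CPM in the snf2 deletion, against 0.588, 0.812 and 0.589 in the swp82 deletion (log2 fold change 1.69 ± 0.18, adjusted p = 4.13e-05). The key gluconeogenic genes FBP1 and PCK1 had log2 fold changes of 0.98 and 0.77, both called. A minimum of 10 scaled CPM in 3 libraries left 12 of the 20 genes, of which 9 were higher. The median member was at 12.8 scaled CPM in the snf2 deletion and 7.42 in the swp82 deletion. In the lowest sixth of all genes by level, up to 19 scaled CPM, 35.4% were higher and 10% lower.

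Glycolytic genes split by isoform. Of 17, 9 were lower in the snf2 deletion and 5 higher, with a median of -0.40, or -0.18 with total-count scaling. The lower ones were the abundant enzymes: CDC19, the main pyruvate kinase, was at 5772, 5284 and 6479.6 scaled CPM in the snf2 deletion, against 14137, 13974 and 14045 in the swp82 deletion (log2 fold change -1.27 ± 0.09, adjusted p = 1.34e-06). ENO2, the main enolase of glucose-grown cells, was at 5276, 4731 and 5318 scaled CPM in the snf2 deletion, against 12418, 11788 and 12145 in the swp82 deletion (log2 fold change -1.25 ± 0.07, adjusted p = 2.98e-07). PGI1, glucose-6-phosphate isomerase, was at 936, 952 and 1072 scaled CPM in the snf2 deletion, against 2098, 2033 and 2049.8 in the swp82 deletion (log2 fold change -1.06 ± 0.06, adjusted p = 6.64e-07). The higher ones were isoforms that yeast makes more of when glucose is scarce, with log2 fold changes of HXK1 2.79, GLK1 2.42, ENO1 2.11, TDH1 1.78 and PYK2 1.38. Reads of the enolase and TDH paralogs are uncertain because their sequences are nearly identical. Summed over the list, the level was 58795, 51360 and 58687 scaled CPM in the snf2 deletion, against 88701, 83672 and 81362 in the swp82 deletion and 81466, 78262 and 78721 in the wild type. In fermentation, 7 of 18 genes were higher and 4 lower, among them PDC5, a pyruvate decarboxylase, at a log2 fold change of 1.01 ± 0.08 (adjusted p = 3.95e-06) and, lower, the main enzymes PDC1 (-0.36) and ADH1 (-0.58). With total-count scaling 2 of these were lower.

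Among 14 hexose transporter and sensor genes, 6 were higher and 1 lower. The lower one, HXT3, a low-affinity glucose transporter, was also the most abundant in the swp82 deletion. It was at 262, 399.6 and 460.0 scaled CPM in the snf2 deletion, against 1021, 1788 and 1632 in the swp82 deletion (log2 fold change -1.98 ± 0.29, adjusted p = 0.000329), with 1126, 1392 and 1366 in the wild type. The higher ones included HXT17 at a log2 fold change of 1.34 ± 0.18 (adjusted p = 0.000178) and HXT11 at a log2 fold change of 1.20 ± 0.16 (adjusted p = 0.000164), low-level genes of a family whose members share sequence, which makes their reads uncertain. With a minimum of 10 scaled CPM in 3 libraries, 1 member was higher. HXT13 to HXT16 were not analysed here. The median member of this list was at 10.3 scaled CPM in the snf2 deletion and 7.20 in the swp82 deletion. Of 16 genes for sucrose, maltose and galactose use, 12 were higher and 1, the inhibitor GAL80 (-0.30), was lower. Their median member was at 14.7 scaled CPM in the snf2 deletion and 12.9 in the swp82 deletion. For both lists, the lowest sixth of all genes by level had 35.4% higher and 10% lower. GAL10, galactose epimerase, was at 4.93, 6.95 and 6.14 scaled CPM in the snf2 deletion, against 1.65, 1.86 and 1.96 in the swp82 deletion (log2 fold change 1.30 ± 0.16, adjusted p = 0.000113), with a non-coding RNA annotated on the opposite strand. GAL7 had a log2 fold change of 1.32 ± 0.18 (adjusted p = 0.000179). SUC2, encoding invertase, had a log2 fold change of 0.39, with 133 ± 5.40 scaled CPM in the snf2 deletion, against 101 ± 8.65 in the swp82 deletion (SD, n = 3 each; adjusted p = 0.00126). Of 15 genes of glucose repression itself, 1 was higher (6.67%) and 3 lower (20%), against 21.7% and 21.8% of all genes. Their median was -0.12, or 0.10 with total-count scaling. MTH1, which holds HXT genes repressed, was at 18.3, 20.8 and 19.7 scaled CPM in the snf2 deletion, against 31, 29.8 and 34.2 in the swp82 deletion (log2 fold change -0.67 ± 0.08, adjusted p = 8.52e-05), below 65.3, 57.9 and 64 in the wild type in both deletions. SIP1, a targeting subunit of the Snf1 kinase, had a log2 fold change of -0.23 ± 0.05 (adjusted p = 0.00436) and lost its call with total-count scaling. SIP2, its paralog, had a log2 fold change of 0.61 ± 0.18 (adjusted p = 0.0193), and was not called without any 1 of replicates 1 and 3 of the snf2 deletion and replicates 2 and 3 of the swp82 deletion (adjusted p up to 0.0807).

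**Figure D4:**
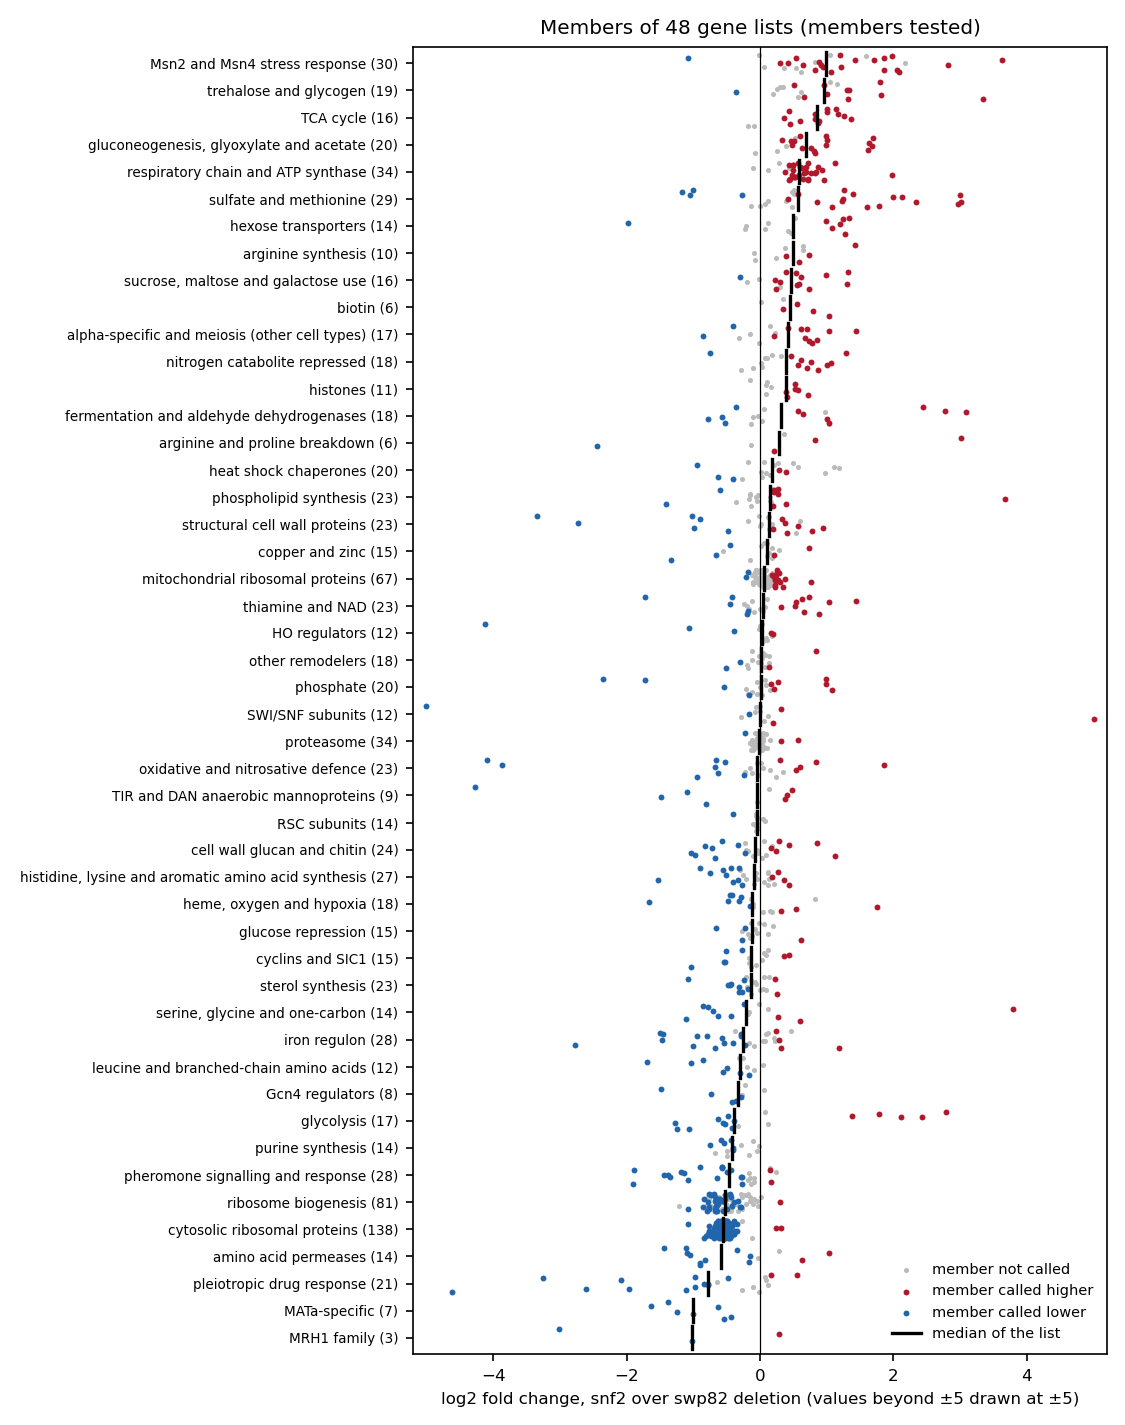
Log2 fold change, snf2 over swp82 deletion, of each tested member of 48 gene lists (number tested in brackets), ordered by list median (black bar); red members were called higher, blue members lower, grey members not called, and SWP82 and SNF2 are drawn at the edge. The medians of the Msn2 and Msn4 stress, respiratory chain and sulfate lists lie right of 0, and those of the MATa-specific, pheromone, drug response, amino acid permease, cytosolic ribosomal protein and ribosome biogenesis lists lie left of 0.

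Cytosolic ribosomal protein genes were lower in the snf2 deletion nearly as a whole. Of 138 tested, 134 were lower and 2 higher (RPS23A 0.32 and RPL15B 0.24), with a median of -0.56. RPL8A was at 577, 574 and 555 scaled CPM in the snf2 deletion, against 966, 1023 and 1009.7 in the swp82 deletion (log2 fold change -0.81 ± 0.07, adjusted p = 5.53e-06). RPP1A, an acidic stalk protein, was at 1011, 1062 and 1016 scaled CPM in the snf2 deletion, against 1509, 1564 and 1571 in the swp82 deletion (log2 fold change -0.59 ± 0.05, adjusted p = 8.07e-06). RPL4A was at 1806, 1844 and 1764 scaled CPM in the snf2 deletion, against 2598, 2784 and 2714 in the swp82 deletion (log2 fold change -0.58 ± 0.05, adjusted p = 8.17e-06). Many of these genes exist as near-identical pairs whose reads may have been split. Summed over the list, the level was 136700, 139860 and 136450 scaled CPM in the snf2 deletion, against 191080, 206640 and 208850 in the swp82 deletion and 163430, 175840 and 179840 in the wild type. The wild type lay between the deletions, with medians against it of -0.33 in the snf2 deletion and 0.23 in the swp82 deletion. With total-count scaling the median was -0.34, and 132 were lower.

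Ribosome biogenesis genes, which encode the processing factors and RNA polymerase I machinery that make ribosomes, followed with a less stable count. Of 81, 38 were lower and 1 higher, with a median of -0.52, or -0.30 with total-count scaling. UTP22, of the small subunit processome, was at 225, 227 and 225 scaled CPM in the snf2 deletion, against 273, 329.6 and 321 in the swp82 deletion (log2 fold change -0.44 ± 0.08, adjusted p = 0.00196). RRN3, an initiation factor of RNA polymerase I, was at 88.9, 91.2 and 91.4 scaled CPM in the snf2 deletion, against 111, 138 and 138 in the swp82 deletion (log2 fold change -0.50 ± 0.10, adjusted p = 0.00224). The one higher member was RRN5, another polymerase I factor, at 42.9, 39.8 and 40.8 scaled CPM in the snf2 deletion, against 33.5, 33.3 and 33.3 in the swp82 deletion (log2 fold change 0.29 ± 0.06, adjusted p = 0.00392). Summed over the list, the level was 12942, 15537 and 13508 scaled CPM in the snf2 deletion, against 16802, 24783 and 23590 in the swp82 deletion and 14004, 17568 and 17714 in the wild type. Replicate 1 was the lowest library of each group, and replicate 1 of the swp82 deletion lay close to the highest snf2 library. The count of lower members was 60 without that library. It was 3 and 5 without replicate 2 and without replicate 3 of the swp82 deletion, and 5, 23 and 4 without replicates 1, 2 and 3 of the snf2 deletion. It was 64 with only the 6 libraries in the fit, and 6 with total-count scaling, which called 577 of all 5820 genes lower. What replicate 1 has in common across the groups is not given in the labels, and its part in these counts was not tested. For mitochondrial ribosomal proteins, 15 of 67 were higher (22.4%) and 2 lower (2.99%), against 21.7% and 21.8% of all genes. Their median was 0.06, or 0.27 with total-count scaling. The number lower was 0 without replicate 3 of the snf2 deletion or replicate 2 of the swp82 deletion and 1 without replicate 1 or 2 of the snf2 deletion. Higher members were MRPL16 at a log2 fold change of 0.37 ± 0.08 (adjusted p = 0.0027), MRPS17 at a log2 fold change of 0.26 ± 0.05 (adjusted p = 0.00237) and RSM18 at a log2 fold change of 0.25 ± 0.05 (adjusted p = 0.0032). With total-count scaling 52 of the 67 were higher, as were 2937 of all 5820 genes.

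**Figure D5:**
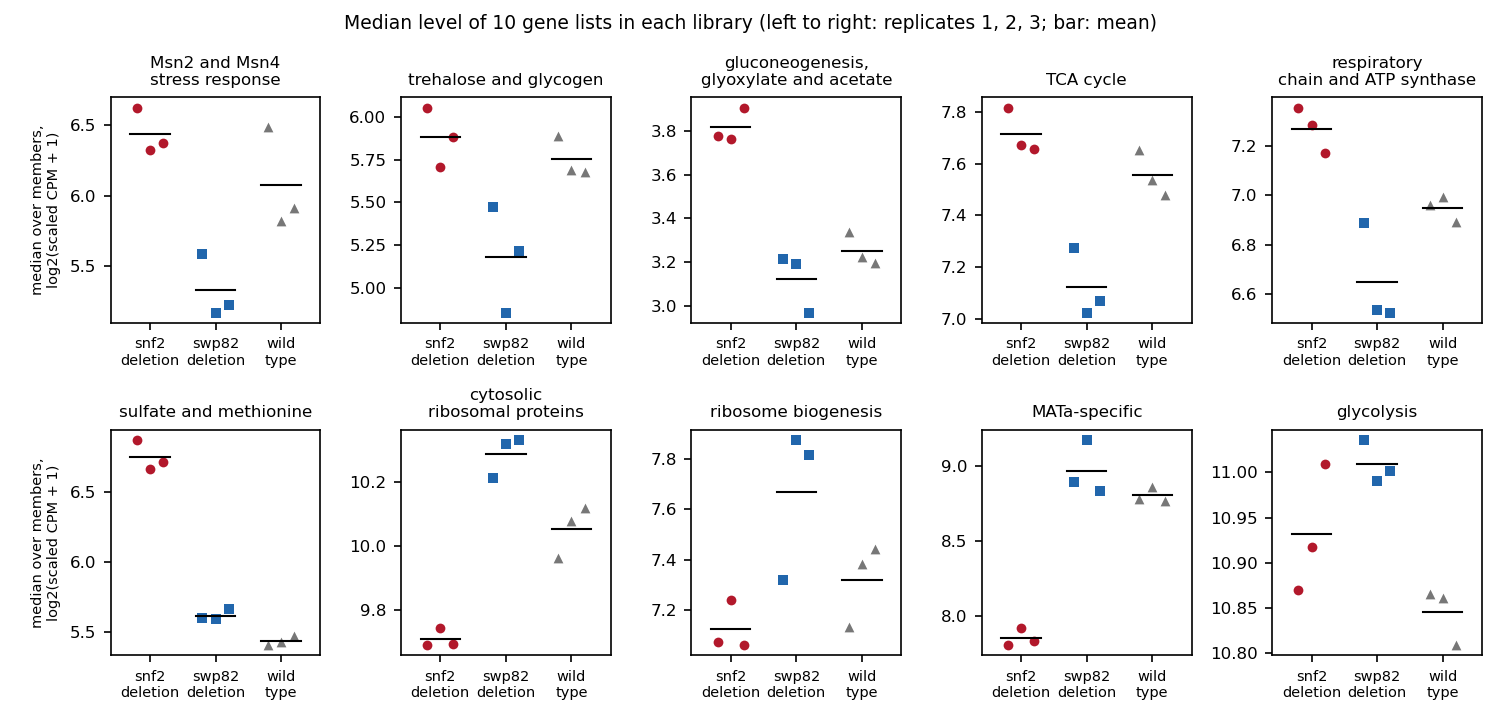
Median level over the members of 10 gene lists, as log2(scaled CPM + 1), in each library of the snf2 deletion (red), the swp82 deletion (blue) and the wild type (grey); bars are group means, and vertical axes differ between panels and do not start at 0. The 2 deletions do not overlap in 9 of the panels, and in the glycolysis panel they overlap.

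Genes of mating type a and of the pheromone response were lower in the snf2 deletion. In a cells the receptor, the a-factor genes and the agglutinin AGA2 are expressed from promoters bound by Mcm1 and Ste12, and pheromone signalling raises many of them. All 7 MATa-specific genes tested were lower, with a median of -1.01, and 6 with total-count scaling. AGA2, the adhesion subunit of a-agglutinin, was at 147, 160.3 and 148 scaled CPM in the snf2 deletion, against 436, 577 and 416 in the swp82 deletion (log2 fold change -1.63 ± 0.11, adjusted p = 1.12e-06). BAR1, the protease that degrades alpha-factor, was at 223, 222 and 198 scaled CPM in the snf2 deletion, against 518, 564 and 455 in the swp82 deletion (log2 fold change -1.25 ± 0.09, adjusted p = 2.99e-06). MFA2, an a-factor precursor, was at 546, 557 and 525 scaled CPM in the snf2 deletion, against 1053, 1202 and 1027 in the swp82 deletion (log2 fold change -1.01 ± 0.07, adjusted p = 2.2e-06). The receptor gene STE2 had a log2 fold change of -0.63 and the a-factor exporter gene STE6 of -0.55, both called. The sum over the 7 genes was 2174, 2262 and 2102 scaled CPM in the snf2 deletion, against 3905, 4808 and 4035 in the swp82 deletion and 3634, 3903 and 3577 in the wild type. The highest snf2 library lay below the lowest library of either other strain. Of 28 genes of pheromone signalling and response, 18 were lower and 2 higher, with a median of -0.46, or -0.25 with total-count scaling. The number higher was 0 without replicate 1 or 3 of the snf2 deletion or replicate 2 of the swp82 deletion and 1 without replicate 2 of the snf2 deletion or replicate 1 or 3 of the swp82 deletion. FAR1, which arrests the cell cycle, was at 119, 118 and 108 scaled CPM in the snf2 deletion, against 248, 261 and 253 in the swp82 deletion (log2 fold change -1.14 ± 0.06, adjusted p = 2.16e-07). SST2, which shuts off the receptor's G protein, was at 132, 132 and 125 scaled CPM in the snf2 deletion, against 279.9, 315 and 292 in the swp82 deletion (log2 fold change -1.18 ± 0.07, adjusted p = 4.06e-07). PRM4 was at 11.8, 13.7 and 13.3 scaled CPM in the snf2 deletion, against 35.3, 42 and 33.9 in the swp82 deletion (log2 fold change -1.45 ± 0.11, adjusted p = 2.8e-06). The higher ones were the kinase genes STE7 (0.17) and STE11 (0.15), and STE12 itself was not called (-0.19).

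Markers of other cell types were at low levels in all libraries. Of 17 alpha-specific and meiotic genes, 10 were higher and 2 lower (1 without replicate 1 of the snf2 deletion), with a median of 0.42. That median was 0.19 with a pseudocount of 5 and 0.69 with edgeR. The sum over the list was 210.4, 215 and 227 scaled CPM in the snf2 deletion, against 179.7, 186 and 178 in the swp82 deletion and 174, 189 and 183 in the wild type. STE3, the receptor gene of alpha cells, was at 8.87, 9.74 and 9.88 scaled CPM in the snf2 deletion, against 3.06, 2.09 and 3.63 in the swp82 deletion (log2 fold change 1.44 ± 0.17, adjusted p = 7.98e-05). SPS4, a sporulation gene, was at 26, 24.8 and 23.3 scaled CPM in the snf2 deletion, against 9.77, 11.5 and 13.5 in the swp82 deletion (log2 fold change 1.04 ± 0.12, adjusted p = 6.92e-05). The alpha-factor genes averaged 0.884 ± 0.209 scaled CPM in the snf2 deletion, against 0.695 ± 0.229 in the swp82 deletion for MF(ALPHA)1, and 2.61 ± 0.838 scaled CPM in the snf2 deletion, against 1.24 ± 0.255 in the swp82 deletion for MF(ALPHA)2 (SD, n = 3 each). IME2, a kinase of early meiosis, had a log2 fold change of 0.70 ± 0.11 (adjusted p = 0.000592). The members called higher fell to 6 without replicate 3 of the snf2 deletion, and to 4 with a minimum of 10 scaled CPM in 3 libraries. In the lowest sixth of all genes by level, 35.4% were higher and 10% lower. HMLALPHA1 and HMLALPHA2 were not analysed here. In bulk RNA, fewer cells of a kind and less RNA per cell cannot be told apart, and the part of such cells in the mating-type result was not tested.

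Regulators of HO and of the cell cycle changed less than HO. Of 12 genes of that list, HO included, 2 were higher (16.7%) and 3 lower (25%), near the 21.7% and 21.8% of all genes. The number higher was 0 without replicate 1 or 3 of the snf2 deletion or replicate 3 of the swp82 deletion and 1 without replicate 2 of the snf2 deletion or replicate 1 or 2 of the swp82 deletion. ASH1, the daughter-cell repressor of HO, was at 113, 111 and 102 scaled CPM in the snf2 deletion, against 257, 236 and 197 in the swp82 deletion (log2 fold change -1.07 ± 0.09, adjusted p = 6.87e-06). MCM1, a regulator of cell-type and cell-cycle genes, was at 245, 243 and 253 scaled CPM in the snf2 deletion, against 330.3, 335 and 303 in the swp82 deletion (log2 fold change -0.38 ± 0.06, adjusted p = 0.000503). SWI5, the activator of HO, was not called (-0.01). Of 15 cyclin and related genes, 2 were higher (13.3%) and 5 lower (33.3%; median -0.14, or 0.08 with total-count scaling). The 2 became 1 without replicate 1 of the snf2 deletion or replicate 2 or 3 of the swp82 deletion. CLB1, a mitotic cyclin, was at 40.8, 37.2 and 41 scaled CPM in the snf2 deletion, against 69.3, 73.3 and 109 in the swp82 deletion (log2 fold change -1.03 ± 0.14, adjusted p = 0.000221). CLN2, a G1 cyclin, had a log2 fold change of -0.54 ± 0.09 (adjusted p = 0.000852). CLN3, the upstream G1 cyclin, was higher at a log2 fold change of 0.43 ± 0.09 (adjusted p = 0.00369). With total-count scaling, 2 of the 15 were lower and 6 higher.

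Transporters of drugs, siderophores and amino acids were lower in the snf2 deletion. Of 21 genes of the pleiotropic drug response, 12 were lower and 2 higher, with a median of -0.78, and the 2 higher became 1 without replicate 1 or 2 of the snf2 deletion or replicate 2 or 3 of the swp82 deletion. The sum over the list was 1831, 1773 and 2005 scaled CPM in the snf2 deletion, against 3800.0, 3685 and 3744 in the swp82 deletion and 3642, 3393 and 3524 in the wild type. Besides QDR2 and AZR1, TPO1, a polyamine exporter, was at 14.5, 14.9 and 15.9 scaled CPM in the snf2 deletion, against 58, 64.2 and 63.2 in the swp82 deletion (log2 fold change -1.96 ± 0.10, adjusted p = 2.16e-07). PDR5 and RSB1, a drug pump and a lipid transporter of the same response, had log2 fold changes of -2.08 and -2.61, while the regulator gene PDR1 was slightly higher (0.17) and PDR3 lower (-0.98), all called. Of 28 genes of the iron regulon, 14 were lower and 4 higher, with a median of -0.26, or -0.04 with total-count scaling. ARN1, a siderophore transporter like SIT1, was at 35.2, 35.3 and 36.1 scaled CPM in the snf2 deletion, against 100.5, 108 and 93.3 in the swp82 deletion (log2 fold change -1.48 ± 0.09, adjusted p = 6.95e-07). ARN2 was at 42.6, 43.7 and 46.2 scaled CPM in the snf2 deletion, against 108, 139 and 136 in the swp82 deletion (log2 fold change -1.50 ± 0.11, adjusted p = 2.84e-06). FET3 and FTR1, the high-affinity iron oxidase and permease, had log2 fold changes of -0.95 and -0.68, both called, while the activator gene AFT1 was higher (log2 fold change 0.24). The higher iron genes fell to 2 without replicate 2 or 3 of the swp82 deletion, and with total-count scaling 10 were lower and 11 higher. Among 15 copper and zinc genes 2 were higher (1 without replicate 3 of the snf2 deletion or replicate 1 of the swp82 deletion) and 3 lower (5 without replicate 1 of the swp82 deletion). The shares were 13.3% higher and 20% lower, against 21.7% and 21.8% of all genes. FRE7, a reductase, had a log2 fold change of -1.34 ± 0.29 (adjusted p = 0.00365) and ZPS1 at a log2 fold change of 0.74 ± 0.13 (adjusted p = 0.00112). The zinc transporter gene ZRT2 had a log2 fold change of -0.44 ± 0.12 (adjusted p = 0.0104) and lost its call with total-count scaling. CUP1-1 and CUP1-2 were not analysed here.

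Of 14 amino acid permease genes, 10 were lower and 2 higher, with a median of -0.58, or -0.37 with total-count scaling. BAP2, a branched-chain amino acid permease, was at 270.2, 231 and 273 scaled CPM in the snf2 deletion, against 539, 534 and 576 in the swp82 deletion (log2 fold change -1.09 ± 0.08, adjusted p = 2.09e-06). TAT1, a permease of valine, leucine and aromatic amino acids, was at 156, 167 and 172 scaled CPM in the snf2 deletion, against 413, 478 and 462 in the swp82 deletion (log2 fold change -1.44 ± 0.12, adjusted p = 7.11e-06), with a non-coding RNA annotated on the opposite strand. TAT2, the tryptophan permease, was at 102, 104 and 105 scaled CPM in the snf2 deletion, against 179.7, 192 and 183 in the swp82 deletion (log2 fold change -0.82 ± 0.08, adjusted p = 1.43e-05). BAP2 and TAT1 are known to answer to external amino acids through the sensor Ssy1. Genes under nitrogen catabolite repression had higher members: GAP1, the general amino acid permease, was at 60.4, 65.6 and 71.4 scaled CPM in the snf2 deletion, against 28, 23.8 and 27.3 in the swp82 deletion (log2 fold change 1.29 ± 0.12, adjusted p = 2.04e-05). MEP1, an ammonium permease, had a log2 fold change of 1.01 ± 0.12 (adjusted p = 0.000101). DAL1, of allantoin use, had a log2 fold change of 1.07 ± 0.13 (adjusted p = 9.15e-05). In the nitrogen catabolite repressed list 9 of 18 were higher and 1 lower, with a median of 0.39 (0.18 with a pseudocount of 5), and with a minimum of 10 scaled CPM in 3 libraries 5 were higher.

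Amino acid synthesis split by pathway. Of 10 arginine genes 4 were higher and 0 lower (likewise 0 by limma at an unadjusted p under 0.05, edgeR and DESeq2). ARG1, argininosuccinate synthase, was at 41.5, 60.1 and 64.8 scaled CPM in the snf2 deletion, against 23.7, 17.8 and 18.1 in the swp82 deletion (log2 fold change 1.42 ± 0.30, adjusted p = 0.00344). The wild type had 74.3, 85.2 and 97.6, so the swp82 deletion was the more distant from it. ARG5,6 had a log2 fold change of 0.74 ± 0.19 (adjusted p = 0.00862) and ARG2 at a log2 fold change of 0.40 ± 0.07 (adjusted p = 0.0017). Of the 10, 8 were higher with only the 6 libraries in the fit or with total-count scaling. In arginine and proline breakdown, 3 of 6 were higher and 1 lower. CAR2, ornithine transaminase, was at 15, 12.7 and 14.3 scaled CPM in the snf2 deletion, against 128, 62.9 and 65 in the swp82 deletion (log2 fold change -2.44 ± 0.30, adjusted p = 0.000102), opposite to PUT4. PUT1, proline oxidase, had a log2 fold change of 0.82 ± 0.10 (adjusted p = 0.000134). Of 12 leucine and branched-chain genes 7 were lower and 0 higher (likewise 0 by limma at an unadjusted p under 0.05, edgeR and DESeq2). BAT2, the cytosolic branched-chain transaminase, was at 125, 116 and 122 scaled CPM in the snf2 deletion, against 488, 403 and 313 in the swp82 deletion (log2 fold change -1.70 ± 0.13, adjusted p = 2.75e-06). LEU9 had a log2 fold change of -1.04 ± 0.19 (adjusted p = 0.00132) and ILV3 at a log2 fold change of -0.86 ± 0.14 (adjusted p = 0.000757). Of the 12, 4 were lower when any 1 of the libraries was left out other than replicate 1 of the swp82 deletion, and with total-count scaling. Of 14 serine, glycine and one-carbon genes, 3 were higher, SER3 among them, and 7 lower (median -0.21, or 0.01 with total-count scaling). GLY1, threonine aldolase, was at 586, 582 and 583 scaled CPM in the snf2 deletion, against 948, 976 and 917 in the swp82 deletion (log2 fold change -0.70 ± 0.06, adjusted p = 7.11e-06). GCV1, of the glycine cleavage system, was at 17.2, 17.2 and 19.4 scaled CPM in the snf2 deletion, against 41.2, 40.4 and 38.2 in the swp82 deletion (log2 fold change -1.11 ± 0.10, adjusted p = 9.51e-06), and lay below 97.9, 86.6 and 84.4 of the wild type in both deletions.

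Of 27 genes of histidine, lysine and aromatic amino acid synthesis, 4 were higher and 10 lower (median -0.09, or 0.13 with total-count scaling). ARO4, an isoform of the first enzyme of the aromatic pathway, had a log2 fold change of -0.89 ± 0.14 (adjusted p = 0.000485), ARO1 at a log2 fold change of -0.56 ± 0.07 (adjusted p = 0.000128) and LYS9 at a log2 fold change of -0.51 ± 0.06 (adjusted p = 8.96e-05). Without replicate 2 of the snf2 deletion or replicate 3 of the swp82 deletion, 2 were higher, and with total-count scaling 11 were higher and 5 lower. Among 8 genes that act with or under the regulator Gcn4, 5 were lower and 0 higher (likewise 0 by limma at an unadjusted p under 0.05, edgeR and DESeq2). ASN1, asparagine synthetase, was at 264, 313 and 308 scaled CPM in the snf2 deletion, against 918, 776 and 778 in the swp82 deletion (log2 fold change -1.48 ± 0.20, adjusted p = 0.000164), ASN2 had a log2 fold change of -0.37 ± 0.06 (adjusted p = 0.000639). ASC1, a ribosome-bound protein whose gene hosts the small nucleolar RNA SNR24, had a log2 fold change of -0.73 ± 0.09 (adjusted p = 0.000101). GCN4 itself was not called (-0.22). Of 14 purine genes 6 were lower and 0 higher (likewise 0 by limma at an unadjusted p under 0.05, edgeR and DESeq2). ADE8 had a log2 fold change of -0.54 ± 0.12 (adjusted p = 0.00539). GUA1, GMP synthase, was at 671, 881 and 782 scaled CPM in the snf2 deletion, against 1044, 1493 and 1417 in the swp82 deletion (log2 fold change -0.75 ± 0.22, adjusted p = 0.0169), and IMD3 had a log2 fold change of -0.44 ± 0.15 (adjusted p = 0.0306). GUA1 was not called without replicate 1 of the snf2 deletion or replicate 2 or 3 of the swp82 deletion (adjusted p up to 0.069), nor IMD3 without these or replicate 3 of the snf2 deletion (up to 0.113) or with total-count scaling. The lower purine genes numbered 1 or 2 without any of those 4 libraries, and 10 without replicate 1 of the swp82 deletion.

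Of 20 phosphate genes 6 were higher (30%) and 4 lower (20%), near the 21.7% and 21.8% of all genes. PHO84, the high-affinity phosphate transporter, was at 0.575, 0.371 and 0.712 scaled CPM in the snf2 deletion, against 5.88, 5.80 and 9.51 in the swp82 deletion (log2 fold change -2.35 ± 0.18, adjusted p = 4.08e-06), and at 81.6, 95.8 and 109.8 in the wild type. It was thus nearly silent in the snf2 deletion and low in the swp82 deletion, and both deletions lay far under the wild type. An antisense non-coding RNA is annotated over PHO84, and the strand setting of the counting is not given in the sources used here. PHO5, the secreted acid phosphatase, was higher, at 28.8, 29.8 and 26.2 scaled CPM in the snf2 deletion, against 16.5, 12.1 and 12.8 in the swp82 deletion (log2 fold change 0.99 ± 0.11, adjusted p = 5.09e-05). PHO3, its thiamine-regulated neighbour, was lower, at 138, 148 and 129 scaled CPM in the snf2 deletion, against 438, 479 and 461 in the swp82 deletion (log2 fold change -1.73 ± 0.14, adjusted p = 4.69e-06). Without replicate 2 of the swp82 deletion 3 phosphate genes were higher, and without it, its replicate 3, or replicate 1 or 3 of the snf2 deletion, 2 were lower.

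Histone genes rose in part. Of 11, 6 were higher and 0 lower (likewise 0 by limma at an unadjusted p under 0.05, edgeR and DESeq2), with a median of 0.39, or 0.61 with total-count scaling. HHF1, a histone H4 gene, was at 1291, 1336 and 1306 scaled CPM in the snf2 deletion, against 741, 807 and 833 in the swp82 deletion (log2 fold change 0.73 ± 0.06, adjusted p = 3.65e-06), with 794, 779.7 and 772 in the wild type. HHT1, of histone H3, was at 1274, 1274 and 1289 scaled CPM in the snf2 deletion, against 784, 889 and 916 in the swp82 deletion (log2 fold change 0.57 ± 0.07, adjusted p = 7.1e-05). HHF2, the other H4 gene, had a log2 fold change of 0.52 ± 0.05 (adjusted p = 3.18e-05). Reads of the paired histone genes are uncertain. HTA1 and HTB1 were not called (-0.15 and 0.09). The sum over the list was 9050.0, 9327 and 9233 scaled CPM in the snf2 deletion, against 6414, 6842 and 7245 in the swp82 deletion and 6740.2, 6644 and 6716 in the wild type. RSC and the other remodelers changed little: of 14 RSC genes 1 was lower, LDB7 at a log2 fold change of -0.41 ± 0.06 (adjusted p = 0.000401), and 0 higher (likewise 0 by limma at an unadjusted p under 0.05, edgeR and DESeq2; median -0.05, or 0.17 with total-count scaling, which called 10 higher). Of 18 genes of other remodelers 2 were higher and 2 lower (11.1% each, against 21.7% and 21.8% of all genes). The 2 higher became 1 without replicate 1, 2 or 3 of the snf2 deletion or replicate 2 of the swp82 deletion. IES6, of the INO80 complex, was at 151, 163 and 151 scaled CPM in the snf2 deletion, against 77.4, 89.9 and 92.3 in the swp82 deletion (log2 fold change 0.84 ± 0.09, adjusted p = 4.76e-05). CHD1, a remodeler that spaces nucleosomes, was at 104, 109.5 and 118 scaled CPM in the snf2 deletion, against 157, 159 and 156 in the swp82 deletion (log2 fold change -0.51 ± 0.05, adjusted p = 3.23e-05). RVB2, a helicase of INO80 and SWR1, had a log2 fold change of -0.30 ± 0.07 (adjusted p = 0.00806), which lost its call with total-count scaling.

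Genes of the cell surface and of defence against oxidants had members called in both directions, in shares to be read against 21.7% higher and 21.8% lower of all genes. Of 23 structural cell wall genes 7 were higher (30.4%) and 6 lower (26.1%), near those of all genes. TIP1, a mannoprotein, was at 49.5, 116 and 128 scaled CPM in the snf2 deletion, against 527, 573 and 739.5 in the swp82 deletion (log2 fold change -2.73 ± 0.32, adjusted p = 8.37e-05). UTR2, a chitin transglycosylase, was at 650.0, 694 and 599.8 scaled CPM in the snf2 deletion, against 1069, 1261 and 1287 in the swp82 deletion (log2 fold change -0.89 ± 0.12, adjusted p = 0.000184). Of 24 genes of glucan and chitin 6 were higher (25%) and 8 lower (33.3%; median -0.07, or 0.15 with total-count scaling). EGT2, which acts after cytokinesis, had a log2 fold change of -1.03 ± 0.10 (adjusted p = 2.34e-05), EXG1 at a log2 fold change of -0.67 ± 0.07 (adjusted p = 3.23e-05) and GAS2, a sporulation-specific glucan transferase, at a log2 fold change of 1.12 ± 0.12 (adjusted p = 4.24e-05). Of 9 TIR and DAN mannoprotein genes 3 were higher (33.3%, or 1 gene without replicate 2 of the swp82 deletion) and 4 lower (44.4%). Their median was -0.05, or 0.10 with total-count scaling. Among the lower, TIR3 had a log2 fold change of -1.10 ± 0.14 (adjusted p = 0.000146) and TIR4 at a log2 fold change of -0.81 ± 0.09 (adjusted p = 7.1e-05). In the family of MRH1, YRO2 was at 6.49, 8.25 and 9.08 scaled CPM in the snf2 deletion, against 24, 14.9 and 13.7 in the swp82 deletion (log2 fold change -1.02 ± 0.20, adjusted p = 0.00243), with 89.4, 74.9 and 59.3 in the wild type. HSP30 had a log2 fold change of 0.28 ± 0.10 (adjusted p = 0.0429). The HSP30 call was lost without any 1 library other than replicate 1 of the snf2 deletion (adjusted p up to 0.135), and with edgeR, DESeq2 or the 6 libraries alone. Of 23 oxidative and nitrosative defence genes 5 were higher (21.7%) and 8 lower (34.8%; median -0.04, or 0.18 with total-count scaling). SOD1, the copper and zinc superoxide dismutase, was at 909, 846 and 854 scaled CPM in the snf2 deletion, against 1862, 1765 and 1430.0 in the swp82 deletion (log2 fold change -0.95 ± 0.09, adjusted p = 1.32e-05). The 5 higher ones fell to 1 to 3 without any 1 library other than replicate 1 of the swp82 deletion. Of 18 heme, oxygen and hypoxia genes 3 were higher (16.7%) and 7 lower (38.9%; median -0.11, or 0.10 with total-count scaling). AAC1, a minor ADP/ATP carrier, was at 49.9, 49.9 and 56.4 scaled CPM in the snf2 deletion, against 14, 18 and 12.6 in the swp82 deletion (log2 fold change 1.76 ± 0.11, adjusted p = 8.95e-07). ANB1, the hypoxic isoform of eIF5A, was at 4.52, 4.91 and 5.70 scaled CPM in the snf2 deletion, against 17.7, 19.1 and 17.3 in the swp82 deletion (log2 fold change -1.66 ± 0.16, adjusted p = 2.64e-05), with 7.67, 7.85 and 8.45 in the wild type. HYP2, the aerobic isoform, had a log2 fold change of -0.45 ± 0.07 (adjusted p = 0.000277). Without any 1 of replicates 1 and 3 of the snf2 deletion and 2 and 3 of the swp82 deletion, the 7 lower ones fell to 3 or 4 and the 3 higher ones to 1.

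Lipid and vitamin genes had a few strong members. Of 23 sterol genes 2 were higher (1 without replicate 1, 2 or 3 of the snf2 deletion or replicate 2 or 3 of the swp82 deletion) and 9 lower (median -0.14, or 0.08 with total-count scaling). HMG1, HMG-CoA reductase, was at 74.8, 80.2 and 77.4 scaled CPM in the snf2 deletion, against 148, 181 and 169 in the swp82 deletion (log2 fold change -1.08 ± 0.07, adjusted p = 1.15e-06). ERG8 had a log2 fold change of -0.44 ± 0.06 (adjusted p = 0.000134) and ERG27 at a log2 fold change of -0.32 ± 0.06 (adjusted p = 0.00175). ERG27 was not called with total-count scaling, which left 2 lower. Of 23 phospholipid genes 7 were higher (30.4%) and 2 lower (8.70%), against 21.7% and 21.8% of all genes. CHO2, which methylates phosphatidylethanolamine, was at 82.2, 87.8 and 82.5 scaled CPM in the snf2 deletion, against 232, 214 and 230.2 in the swp82 deletion (log2 fold change -1.41 ± 0.07, adjusted p = 1.95e-07). TAZ1, a cardiolipin acyltransferase, had a log2 fold change of 0.38 ± 0.07 (adjusted p = 0.000982). The 7 fell to 2 without replicate 1 of the snf2 deletion, 4 without its replicate 3 and 3 without replicate 2 of the swp82 deletion. The number lower was 1 without replicate 1 of the snf2 deletion or replicate 3 of the swp82 deletion and 4 without replicate 1 of the swp82 deletion. Of 6 biotin genes 4 were higher and 0 lower (likewise 0 by limma at an unadjusted p under 0.05, edgeR and DESeq2). BIO5 had a log2 fold change of 1.03 ± 0.13 (adjusted p = 0.000144), BIO3 at a log2 fold change of 0.79 ± 0.10 (adjusted p = 0.000166) and BIO4 at a log2 fold change of 0.56 ± 0.07 (adjusted p = 8.25e-05). Of 23 thiamine and NAD genes 9 were higher (39.1%) and 5 lower (21.7%). BNA2, the first enzyme of NAD synthesis from tryptophan, was at 11.6, 12.8 and 12.4 scaled CPM in the snf2 deletion, against 5.41, 3.48 and 3.04 in the swp82 deletion (log2 fold change 1.44 ± 0.15, adjusted p = 3.92e-05). THI4, of thiamine synthesis, had a log2 fold change of 1.03 ± 0.11 (adjusted p = 5.08e-05). BNA2 overlaps another annotated gene on its strand. The 5 lower ones fell to 3 without replicate 2 or 3 of the snf2 deletion or replicate 2 of the swp82 deletion.

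Few proteasome genes were called. Of 34, 2 were higher and 1 lower (median -0.02, or 0.20 with total-count scaling). PRE7 was at 323, 306 and 306 scaled CPM in the snf2 deletion, against 262, 251 and 237 in the swp82 deletion (log2 fold change 0.32 ± 0.05, adjusted p = 0.000418). RPN4, the transcription factor that raises proteasome genes, was at 340.3, 299.5 and 312 scaled CPM in the snf2 deletion, against 257, 195 and 195 in the swp82 deletion (log2 fold change 0.56 ± 0.17, adjusted p = 0.0184). It lost its call without replicate 1 of the snf2 deletion or replicate 2 or 3 of the swp82 deletion (adjusted p up to 0.0723). PRE1, the one lower member, had a log2 fold change of -0.23 ± 0.08 (adjusted p = 0.0461), with adjusted p up to 0.175 when 1 library was left out (lost without replicate 2 or 3 of either deletion). The number of lower members was 0 without replicate 2 or 3 of the snf2 deletion or replicate 2 of the swp82 deletion and 2 without replicate 3 of the swp82 deletion and 4 without replicate 1 of the snf2 deletion. With total-count scaling 22 of the 34 were higher, in step with the median of all genes.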

How the data were processed

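RNA of 12 libraries, 3 each of the snf2, swp82 and snf5 deletions and the wild type, was extracted with hot acid phenol and sequenced after a stranded poly(A) preparation, per the labels' protocols. The submitters' processing notes name Bowtie2 2.1.0, TopHat2 2.0.10, edgeR 3.8.6 and the build sacCer3. Which strand setting was used in counting is not given in the sources used here. Per gene, the authors deposited a normalized signal, the CPM divided by edgeR's TMM library factor. Every value came out as a whole number of reads (100%, tolerance 0.05), which gives 9012746 to 12875057 reads a library. As these are not counts, the main test was limma 3.58.1 with a trend on log2(value + 1), fitted to the 12 libraries with their 4 groups and no other term. It covered 5820 genes that reached 1 scaled CPM in 3 or more libraries (115 of 5935 were removed). p-values were adjusted over all genes by the Benjamini-Hochberg method. On the recovered reads, edgeR 4.0.16 called 2540 genes and DESeq2 1.42.0 called 2618, against 2533. The steps were tested on simulated data.

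Members and lists were chosen with earlier results of these data known. Named genes were the deleted and marker genes, the SWI/SNF subunits, the 15 highest and 15 lowest of 305 eligible genes, and the 3 called members of lowest p in each of 48 lists. Other list members given by fold change alone, and the 8 promoters, were chosen after their values were seen. Gene positions and promoters came from RefSeq's R64 genome, in which 5685 of 5935 identifiers were found. No promoter table was used. Windows of 300 bases were read before 5623 genes, ending 51 bases before the gene start, which is the start of the coding sequence in 6021 of 6027 coding genes.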

Additional observations from a re-analysis of the deposited data

How the results depend on the processing

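The counts of 2533 called, 1265 higher and 1268 lower genes stayed within 1.5 times under every alternative except total-count scaling, which gave 2937 higher and 577 lower. The other alternatives gave 2302 to 3014 called genes: pseudocounts of 0.1 and 5, no filter, a minimum of 10 scaled CPM, upper-quartile factors, DESeq2 size factors, edgeR (2540), DESeq2 (2618), the 6 libraries alone (2690) and a replicate block (3014). With 1 library left out, called genes numbered 1787 (without replicate 2 of the swp82 deletion) to 2815 (without replicate 1 of the swp82 deletion), higher genes 911 to 1363 and lower genes 876 to 1452. Genes called and at least 2-fold higher fell to 109 with a pseudocount of 5, against 215.

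For the named genes, 2675 comparisons with an alternative kept direction and side of the threshold. Another 45 lost the call, 5 gained it and 17 changed sign. All 17 were in SWI/SNF subunit genes: SNF5, SNF11, TAF14 and RTT102, which were not called, and ARP9, which was called (log2 fold change -0.17). Most named genes were chosen by low p or large fold change in these data, so these numbers do not describe other genes. Over all genes, 1842 of the 2533 genes called were still called with total-count scaling, direction aside. With total-count scaling SNF5 was at 0.21, ARP9 at 0.0477, SNF11 at 0.16, TAF14 at 0.15 and RTT102 at 0.22 (log2). With upper-quartile factors SNF5 was at 0.0664, SNF11 at 0.0163, TAF14 at 0.0027 and RTT102 at 0.0709, and with edgeR RTT102 was at 0.0018. With 1 library left out, SNF5 ranged from -0.0723 to 0.0611, SNF11 from -0.138 to 0.0316 and RTT102 from -0.0239 to 0.016. TAF14 and RTT102 passed the threshold with total-count scaling (adjusted p = 0.025 and 0.00774).

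Replicate numbers were not taken as pairs. The deviations of same-numbered libraries from their group means correlated at 0.41, 0.38 and 0.05 for replicates 1, 2 and 3, and replicate 3 of the swp82 deletion correlated best with replicate 2 of the snf2 deletion. The fit with the replicate block called 3014 genes, against 2533 without it.

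Without counts of molecules, intervals cover counting error only. Genes near 1 scaled CPM rest on about 10 reads a library, so their folds depend on the pseudocount. With 3 libraries a group, several list counts moved by over 1.5 times when 1 library was left out, among them ribosome biogenesis, the stress and trehalose lists and purine synthesis.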

Other observations

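Sporulation and meiosis genes, most of them outside the lists above, were more often higher than lower in the snf2 deletion. Of 37 such genes, gathered by their known roles after the values were seen, 20 were higher (54.1%) and 8 lower (21.6%), against 21.7% and 21.8% of all genes. Most of the 37 were at low levels, and in the lowest sixth of all genes by level 35.4% were higher and 10% lower. SPO20, which fuses vesicles into the spore membrane, averaged 10.8 ± 0.524 scaled CPM in the snf2 deletion, against 1.56 ± 0.389 in the swp82 deletion (SD, n = 3 each; log2 fold change 2.22 ± 0.12, limma adjusted p = 2.98e-07). CDA1, a chitin deacetylase of the spore wall, averaged 9.72 ± 0.661 scaled CPM in the snf2 deletion, against 1.36 ± 0.0741 in the swp82 deletion (SD, n = 3 each; log2 fold change 2.18 ± 0.14, limma adjusted p = 1.15e-06), and LDS2, a lipid droplet protein of spores, averaged 9.94 ± 0.441 scaled CPM in the snf2 deletion, against 1.54 ± 0.61 in the swp82 deletion (SD, n = 3 each; log2 fold change 2.14 ± 0.18, limma adjusted p = 6.75e-06). The member furthest from 0 was a lower one, NDJ1, the meiotic telomere protein, at 0.794 ± 0.204 scaled CPM in the snf2 deletion, against 22.9 ± 2.77 in the swp82 deletion (SD, n = 3 each; log2 fold change -3.73 ± 0.20, limma adjusted p = 2.22e-07). Other lower members were RME1, a repressor of meiosis in haploid cells, at 30.2 ± 1.03 scaled CPM in the snf2 deletion, against 92.5 ± 13.2 in the swp82 deletion (SD, n = 3 each; log2 fold change -1.58 ± 0.11, limma adjusted p = 1.46e-06), HFM1, a meiotic helicase, at 9.70 ± 0.561 scaled CPM in the snf2 deletion, against 24.9 ± 1.82 in the swp82 deletion (SD, n = 3 each; log2 fold change -1.27 ± 0.12, limma adjusted p = 2.25e-05), and SPO22, a meiosis gene, at 3.91 ± 0.708 scaled CPM in the snf2 deletion, against 10.7 ± 2.38 in the swp82 deletion (SD, n = 3 each; log2 fold change -1.25 ± 0.17, limma adjusted p = 0.000191). No test of the group was made.

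Retrotransposon genes were more often lower than higher. Of 36 genes with Gag or Gag-Pol in their annotation, also gathered after the values were seen, 18 were lower (50%) and 4 higher (11.1%). The 36 include GAG1, annotated only as Gag1p and not as a Ty protein, which was not called. The summed level was 534 scaled CPM in the snf2 deletion, 740.4 in the swp82 deletion and 708 in the wild type. A few genes weigh heavily in these sums. In the snf2 and swp82 deletions, GAG1 averaged 78.1 and 79.1, YGR109W-B (called higher) 155 and 103, and YIL082W-A (called lower) 72.4 and 142. Ty copies are nearly identical, so reads of single copies are uncertain. Among 285 genes within 30 kb of a chromosome end, 28.4% were higher and 12.3% lower, and among 5341 genes farther in, 21.6% were higher and 22.8% lower. The 2 sets were not matched for expression level, with which the shares also changed (35.4% higher and 10% lower in the lowest sixth of genes). The difference between genes near and far from chromosome ends was not tested, nor was the part of level in it.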
